A study of Homo sapiens with 6 samples.

Results

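The EGFR family joins receptor tyrosine kinases at the cell surface to the secreted or shed growth factors that bind them. The members described here were 10 genes: the receptors EGFR, ERBB2 and ERBB3, the ligands AREG, EREG, HBEGF, TGFA, BTC and NRG1, and the intracellular inhibitor ERRFI1. A member's values were all array probe sets whose platform annotation gave exactly 1 symbol, equal to that gene. This found 37 probe sets of 9 genes, among 45278 probe sets with 1 symbol and 18244 genes in all. AREG had no such probe set and was not analysed here.

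The samples were 6 RNA samples of A549, a human lung adenocarcinoma cell line, each hybridised to 1 Affymetrix expression array. In 3 of them (KD replicates 1, 2 and 3) a lentiviral short hairpin was directed against MRPL35, the gene of a mitochondrial ribosomal protein. The other 3 (NC replicates 1, 2 and 3) carried a lentiviral control hairpin, so both groups had been exposed to lentivirus and both were A549 in medium with fetal serum. The labels do not give the hairpin sequences, the time after transduction, whether cells were selected or whether replicates came from separate cultures or transductions. KD is therefore 1 hairpin label in 1 cell line. The p-values cover the spread among these 6 samples, which may be technical, and precision is limited by having 3 arrays a group. For NC replicates 2 and 3 one label field names a cell line with another number and a second field names A549.

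EGFR, ERBB2 and ERBB3 signal as pairs: a ligand bound outside the cell brings receptors together, and the paired kinases phosphorylate tyrosines on which adaptor proteins assemble. ERBB2 binds no known ligand of its own, and ERBB3 has little kinase activity, so each acts mainly through a partner. TGFA and AREG bind EGFR, EREG, HBEGF and BTC bind EGFR and the related receptor ERBB4, and NRG1 binds ERBB3 and ERBB4. The ligands are made as membrane-anchored precursors that metalloproteases cut from the cell surface. In lung epithelium this family controls growth and repair, and EGFR is a common driver and drug target in lung adenocarcinoma.

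The promoters of the 3 members with the largest change at their brightest probe set are shown. Of these, EREG fell and EGFR and HBEGF rose. The sequences are the last 100 bases before each gene's start in the RefSeq table for GRCh38.p14, at chr4:74365045-74365144 on the plus strand for EREG, chr7:55018917-55019016 on the plus strand for EGFR and chr5:140346604-140346703 on the minus strand for HBEGF. Capitals mark matches to the TATA box TATAAA, the CCAAT box CCAAT or the GC box GGGCGG on either strand.
EREG: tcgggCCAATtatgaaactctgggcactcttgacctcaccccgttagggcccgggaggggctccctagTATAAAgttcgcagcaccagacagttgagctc
EGFR: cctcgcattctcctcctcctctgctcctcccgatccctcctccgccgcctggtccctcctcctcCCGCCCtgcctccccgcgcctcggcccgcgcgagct
HBEGF: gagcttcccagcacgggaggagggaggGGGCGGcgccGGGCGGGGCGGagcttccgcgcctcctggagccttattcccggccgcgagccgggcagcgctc

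The printed EREG stretch held a TATA box beginning 32 bases before the start and a CCAAT box beginning 95 bases before it. EGFR held 1 GC box beginning 36 bases before the start. HBEGF held 3 GC boxes, the last 2 sharing letters, beginning 73, 63 and 58 bases before the start. Over the full 250 bases before the start, which 8 of the 10 members had in the table, EREG held 1 TATA box and 2 CCAAT boxes, EGFR 2 GC boxes and HBEGF 5. The G and C content of these windows was 58% for EREG, 73.6% for EGFR and 76.4% for HBEGF. ERBB2, which rose, held 1 CCAAT box and 0 GC boxes at 65.6%. ERRFI1, which fell, held 1 CCAAT box and 1 GC box at 75.2%. The uncalled TGFA held 3 GC boxes at 75.6%, and the uncalled BTC held none of these boxes at 62%. AREG, without a measured change, held 1 TATA box and 1 GC box at 65.2%. Whether the letters go with the direction of change was not tested. Among all 35116 windows of that length, 10.7% held the TATA letters, 32% the CCAAT letters and 42.6% the GC box letters on either strand. The AP-1 letters TGAGTCA and the E-box letters CACGTG matched in none of the 8 windows, against 4.2% and 6.34% of all windows. The CRE letters TGACGTCA matched in AREG alone of the 8, against 1.65% of all windows. These matches describe the letters and say nothing of binding.

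Values are the authors' deposited probe-set values, read as log2, so a difference of 1 is a doubling. MRPL35 itself lay between 6.44 and 6.56 in KD and between 8.05 and 8.36 in NC, a fall to 30.9% of NC (limma adjusted p = 3.77e-06). The knockdown came with a wide change: limma called 33.5% of the 18244 genes at an adjusted p under 0.05, 17.6% higher in KD and 15.9% lower, and the groups did not overlap in 44.7% of genes. Correlations between arrays were 0.997 to 0.998 within KD, 0.994 to 0.998 within NC and 0.976 to 0.98 between groups. The difference between the 3′ and 5′ control probe sets of ACTB, a measure of RNA integrity, was 0.59 to 0.68 in KD and 0.49 to 0.65 in NC. NC replicate 2 stood apart on the second principal component, which held 11.8% of the variance. The epithelial markers were expressed, with list means of 11.2 to 11.3 in KD and 10.7 to 10.8 in NC, and 4 of 6 were called higher in KD. The markers enriched in A549 averaged 13.3 in every KD array and 12.8 to 12.9 in NC, again with 4 of 6 higher. Mean levels of the leukocyte, fibroblast and endothelial lists lay between 3.78 and 4.90 in all arrays, and 1 of their 14 measured genes was called, CD14. The part of the epithelial shift in the results below was not tested. In bulk RNA, a change in the share of cells that express a gene and a change in RNA per cell cannot be told apart.

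Of the 9 measured members, EGFR, ERBB2 and HBEGF rose in KD and EREG, NRG1 and ERRFI1 fell, each at the brightest probe set of the gene. ERBB3, TGFA and BTC were not called. The 3 rises compare with 17.6% of all genes and the 3 falls with 15.9%, and KD and NC did not overlap in 6 of the 9 members, against 44.7% of all genes. The members were chosen with earlier results of these data known, so these shares do not test the family. EREG was the single member past a 2-fold change. The median difference over the 9 was 0.14, against -0.018 over all genes, whose quartiles were -0.18 and 0.17.

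**Figure D1:**
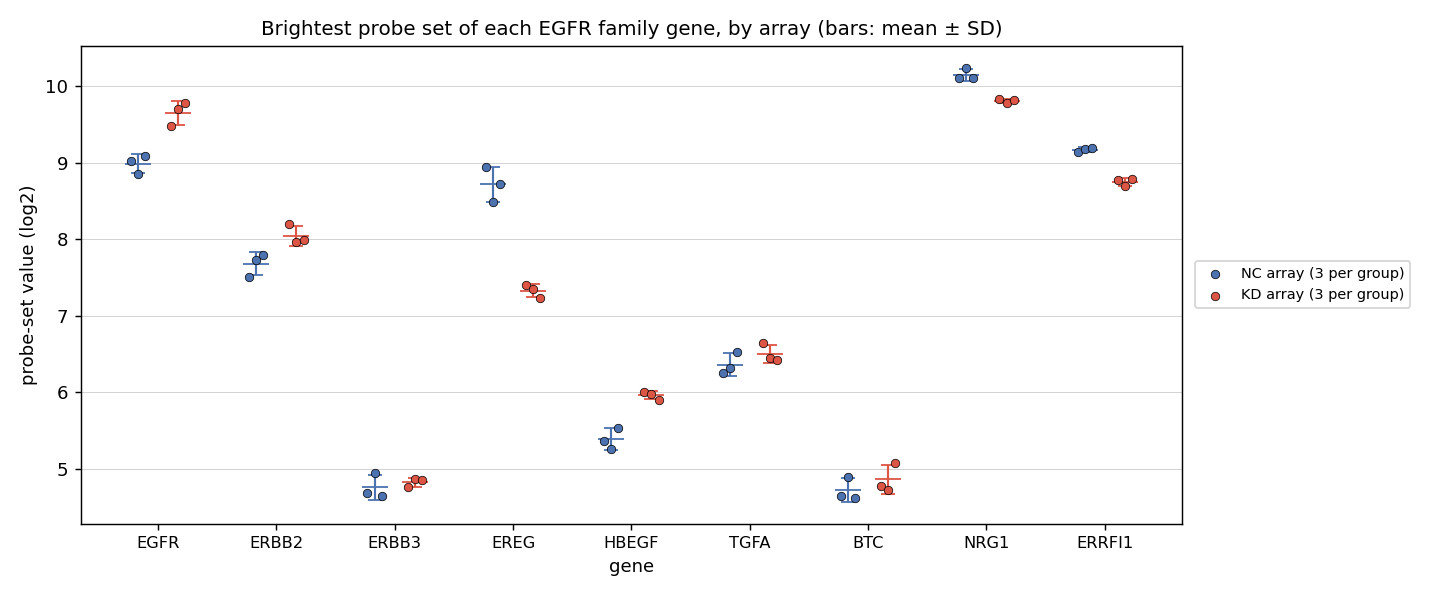
Brightest probe set of each measured member, with the log2 value on the vertical axis, 1 point per array (NC blue, KD red) and bars for the mean ± SD of 3 arrays. KD lies wholly above NC for EGFR, ERBB2 and HBEGF and wholly below it for EREG, NRG1 and ERRFI1, while ERBB3, TGFA and BTC overlap.

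EGFR, the receptor for most ligands measured here, rose in KD at 6 of its 8 probe sets. The brightest probe set, 11725104_a_at, read 9.48, 9.71 and 9.78 in the KD arrays and 9.02, 8.85 and 9.09 in the NC arrays. Every KD array lay above every NC array. The group means were 9.65 ± 0.156 (SD, n = 3) and 8.99 ± 0.124 (SD, n = 3), a difference of 0.67 (SE 0.105) or 1.59-fold (limma adjusted p = 0.00111). The largest change was at 11725103_s_at, with 8.32, 8.18 and 8.31 in KD and 7.38, 7.16 and 7.45 in NC, a difference of 0.94 (SE 0.0998, limma adjusted p over probe sets = 0.000117). The suffix s marks a probe set that can hybridise to several transcripts. The probe set 11725102_at, without that suffix, moved by a similar amount, from a mean of 5.45 in NC to 6.32 in KD (difference 0.87, SE 0.104). The other 3 called probe sets differed by 0.69, 0.61 and 0.41. The 2 uncalled EGFR probe sets were dim: 11738815_at averaged 3.21 in KD and 3.12 in NC, and 11762479_at averaged 3.04 and 3.22. On these arrays the medians of the 23 background control probe sets were 2.76 to 2.91, and their values rose with G and C content from 2.07 to 10.8. Since probe base composition was not used here, no member was called below background.

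**Figure D2:**
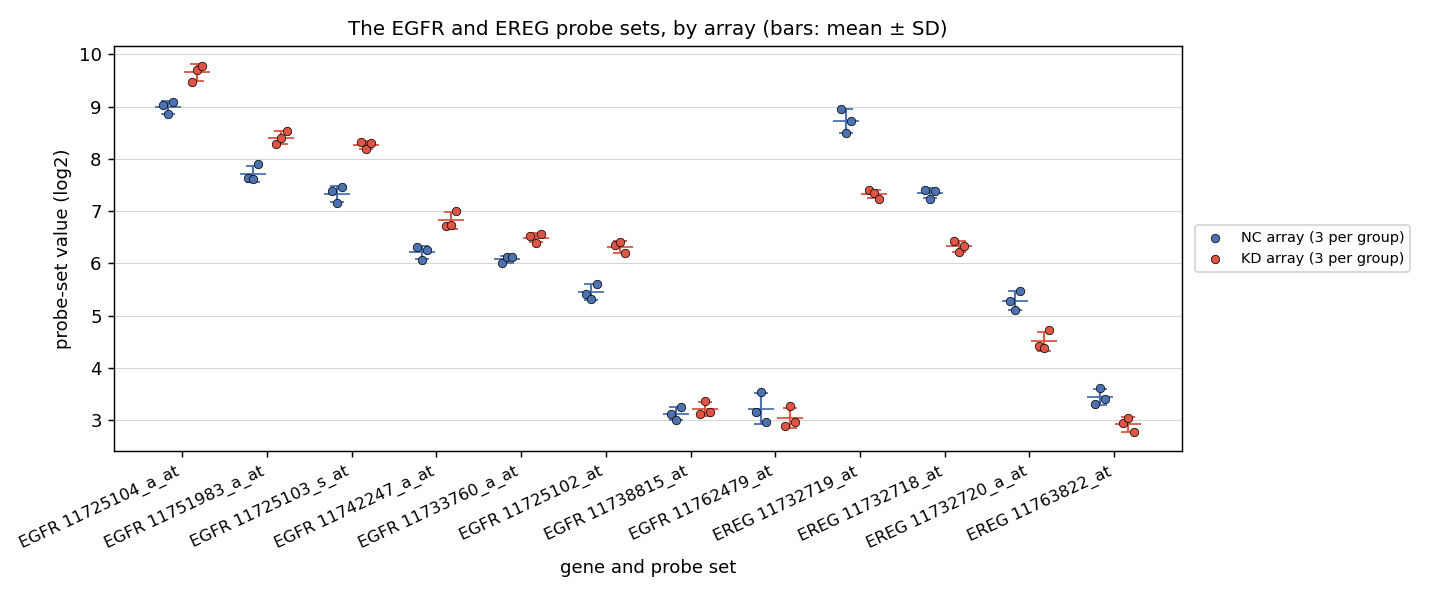
All 8 EGFR and all 4 EREG probe sets, with the log2 value on the vertical axis, 1 point per array (NC blue, KD red) and bars for the mean ± SD of 3 arrays. The 6 brighter EGFR probe sets are higher in every KD array and all 4 EREG probe sets are lower in every KD array, while the 2 dim EGFR probe sets overlap.

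ERBB2, the receptor without a ligand of its own, rose in KD at 2 of 5 probe sets. The brightest, 11736472_a_at, read 8.20, 7.96 and 7.98 in KD and 7.51, 7.72 and 7.80 in NC. The groups did not overlap, but the lowest KD array and the highest NC array were close. The difference was 0.37 (SE 0.105) or 1.29-fold (limma adjusted p = 0.0243). This call rested on single arrays: leaving out KD replicate 1 gave a limma adjusted p of 0.0946, leaving out KD replicate 3 gave 0.0508, and leaving out NC replicate 1 gave 0.084. A dimmer ERBB2 probe set, 11750611_a_at, read 6.96, 6.87 and 7.05 in KD and 6.23, 6.37 and 6.57 in NC, and differed by 0.57 (SE 0.106, limma adjusted p over probe sets = 0.00284). In contrast, 11755005_a_at read 6.75, 6.84 and 6.61 in KD and 6.62, 6.97 and 6.71 in NC. That difference was -0.03, with a 95% interval from -0.29 to 0.22. The remaining ERBB2 probe sets differed by 0.16 and 0.07 and overlapped between groups.

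ERBB3, the receptor with little kinase activity that NRG1 binds, was not called at its brightest probe set. 11734393_at read 4.76, 4.86 and 4.85 in KD and 4.68, 4.94 and 4.64 in NC, so all KD arrays lay within the NC range. The difference was 0.07, with a 95% interval from -0.16 to 0.29 (limma adjusted p = 0.676). The probe set 11721445_x_at, whose suffix x marks probes that match other transcripts too, read 4.51, 4.51 and 4.12 in KD and 3.59, 4.03 and 3.97 in NC. It was called higher by 0.51 (SE 0.147, limma adjusted p over probe sets = 0.0260), but the call was lost when KD replicate 1, KD replicate 2 or NC replicate 1 was left out.

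EREG, which encodes epiregulin, fell in KD at all 4 of its probe sets. The brightest, 11732719_at, read 7.40, 7.35 and 7.23 in KD and 8.95, 8.49 and 8.72 in NC. The highest KD array lay more than 1 log2 unit below the lowest NC array. The means were 7.33 ± 0.0843 (SD, n = 3) in KD and 8.72 ± 0.230 (SD, n = 3) in NC, a difference of -1.39 (SE 0.119) or 2.62-fold lower (limma adjusted p = 3.4e-05). The next, 11732718_at, read 6.43, 6.21 and 6.34 in KD and 7.41, 7.24 and 7.39 in NC, a difference of -1.02 (SE 0.094). The dimmer 11732720_a_at and 11763822_at differed by -0.78 and -0.52, also without overlap. EREG lies between EPGN and AREG in the RefSeq gene order of chromosome 4, with BTC next after AREG. Of these neighbours, EPGN differed by -0.13 (limma adjusted p = 0.274) and BTC by 0.14, and neither passed the test. EPGN was dim, with means of 3.38 in KD and 3.51 in NC, and every KD array lay below every NC array.

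HBEGF, a heparin-binding ligand, rose in KD at 1 of 2 probe sets. 11719898_s_at read 6.01, 5.98 and 5.90 in KD and 5.37, 5.26 and 5.54 in NC. KD and NC did not overlap. The difference was 0.57 (SE 0.0921) or 1.49-fold (limma adjusted p = 0.00121). The other probe set, 11755981_a_at, was dim, with 3.00, 2.87 and 2.98 in KD and 2.79, 3.07 and 2.66 in NC, and differed by 0.11 (95% interval from -0.15 to 0.37). The HBEGF call therefore came from a probe set whose suffix marks possible hybridisation to several transcripts. With probe sets of the s and x suffixes left out, the gene's difference was 0.11 (limma adjusted p = 0.554).

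TGFA, a ligand of EGFR, was not called at its brightest probe set, and its probe sets did not move together. 11728302_at read 6.64, 6.44 and 6.41 in KD and 6.25, 6.31 and 6.52 in NC, with overlapping groups. The difference was 0.14, with a 95% interval from -0.10 to 0.37 (limma adjusted p = 0.383). 11728303_at read 5.27, 5.06 and 5.24 in KD and 4.46, 4.72 and 4.58 in NC, and was called higher by 0.60 (SE 0.100, limma adjusted p over probe sets = 0.00159). The other TGFA probe sets differed by -0.24 and 0.12 and were not called, although the first, 11745160_s_at, was called at -0.36 without NC replicate 1 (limma adjusted p over probe sets = 0.0480). BTC, which encodes betacellulin, overlapped between groups at both probe sets. 11762566_at read 4.78, 4.73 and 5.07 in KD and 4.64, 4.89 and 4.62 in NC, a difference of 0.14 with a 95% interval from -0.13 to 0.41 (limma adjusted p = 0.443). The other BTC probe set differed by 0.12.

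NRG1, which encodes neuregulin 1, had probe sets that moved in opposite directions. Neuregulin 1 is made from several promoters and many splice forms. Its probe sets are annotated to several transcript records, and 11740347_x_at and 11740346_a_at share the same record. Probe sequences were not used here, so which transcripts each probe set reads is not known. The cause of the opposite changes was not tested. The brightest probe set, 11727215_a_at, read 9.83, 9.78 and 9.82 in KD and 10.11, 10.25 and 10.11 in NC. All KD arrays were below all NC arrays, by a difference of -0.34 (SE 0.0778) or 1.27-fold lower (limma adjusted p = 0.00805). 11740347_x_at differed by -0.35 (limma adjusted p over probe sets = 0.0125), and this call was lost without KD replicate 2, at 0.0505. 11740346_a_at, with 9.32, 9.21 and 9.32 in KD and 9.48, 9.56 and 9.46 in NC, was separated by group but not called (limma adjusted p over probe sets = 0.0790). It was called with trend and robust moderation (0.0204) and with low values left out (0.0417).

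Other NRG1 probe sets rose in the same arrays. 11741304_a_at read 8.42, 8.45 and 8.63 in KD and 7.64, 7.45 and 7.51 in NC, a difference of 0.97 (SE 0.095) or 1.95-fold higher (limma adjusted p over probe sets = 7.65e-05). 11740544_a_at read 8.48, 8.42 and 8.52 in KD and 7.78, 7.83 and 7.65 in NC, a difference of 0.72 (SE 0.0864). 11755968_a_at, with 6.62, 6.59 and 6.61 in KD and 6.10, 6.00 and 6.02 in NC, differed by 0.57 (SE 0.0785). In each of these 3 every KD array lay above every NC array. The last pair, 11742478_a_at and 11745036_at, differed by 0.03 and -0.24 and were not called. For 11745036_at every KD array nevertheless lay below every NC array (limma adjusted p over probe sets = 0.133). Of 8 NRG1 probe sets, 3 were thus called higher and 2 lower. Averaged over all 8, the gene differed by 0.14 (limma adjusted p = 0.146), opposite in sign to its brightest probe set.

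The unequal change of the NRG1 probe sets was also taken within arrays. The value of 11741304_a_at minus that of 11727215_a_at was -1.41, -1.33 and -1.19 in KD and -2.47, -2.80 and -2.60 in NC. The KD and NC arrays did not overlap, and the difference narrowed by 1.31 in KD. That shift restates the changes of 0.97 and -0.34 given above and is not separate support. An exact two-sided permutation test over the 20 arrangements of 6 arrays gave p = 0.1, the smallest this design allows, which can never reach 0.05. It was 1 of 28 such comparisons of a member's brightest probe set with its others, and had the largest shift of them. KD and NC did not overlap in 15 of the 28, and the smallest adjusted p of the permutation test over the 28 was 0.187. The same share over all genes with several probe sets was not taken. The count therefore does not show whether unequal change is unusual for these members.

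**Figure D3:**
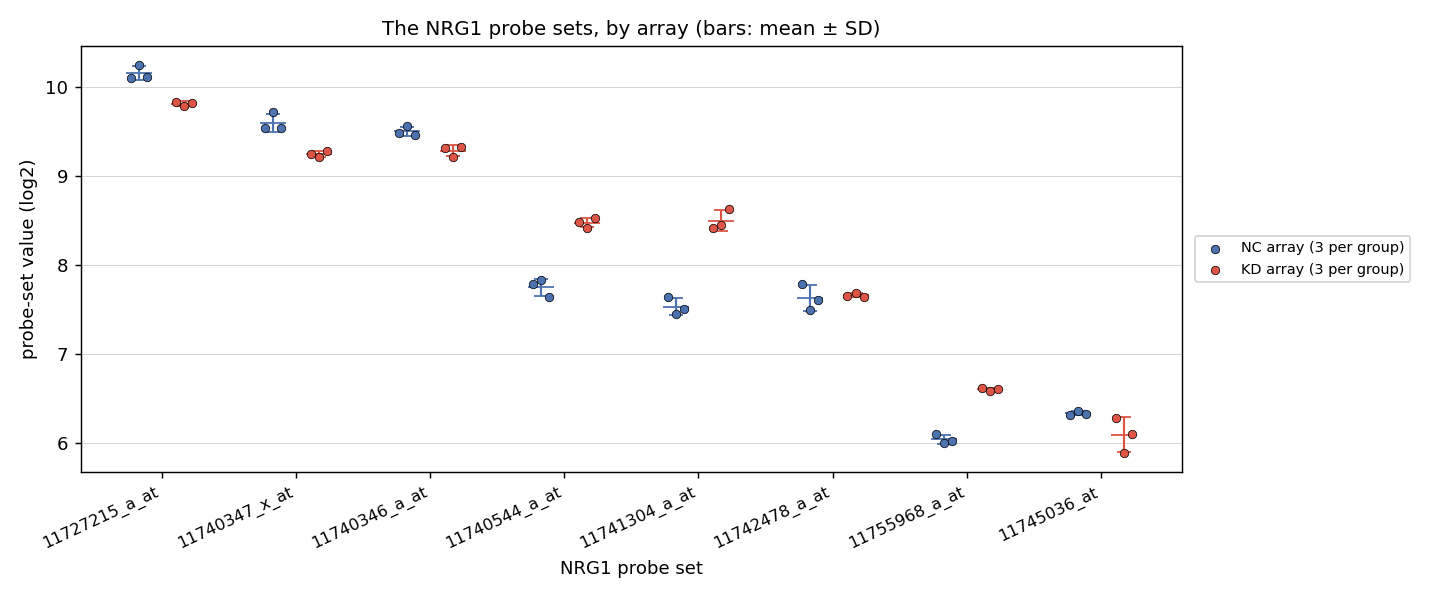
The 8 NRG1 probe sets, with the log2 value on the vertical axis, 1 point per array (NC blue, KD red) and bars for the mean ± SD of 3 arrays. The 3 brightest and 11745036_at are lower in every KD array, and 11740544_a_at, 11741304_a_at and 11755968_a_at are higher in every KD array.

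ERRFI1, which encodes an inhibitor that binds the EGFR kinase domain and is itself induced by EGFR signalling, fell in KD. Its single probe set, 11715659_s_at, read 8.77, 8.70 and 8.79 in KD and 9.14, 9.18 and 9.20 in NC. The groups were wider apart than the spread within either. The difference was -0.42 (SE 0.0744) or 1.34-fold lower (limma adjusted p = 0.00207). Because this probe set has the s suffix, ERRFI1 had no value when such probe sets were left out.

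Over all 37 member probe sets, 14 were called higher, 7 lower and 16 were not called. Among all 49293 probe sets that are not controls, 16.5% were called higher and 14.1% lower. KD and NC did not overlap in 23 of the 37, against 42.5% of all probe sets. Probe sets of 1 gene are not independent, and EGFR and NRG1 had 8 each. EGFR gave 6 of the higher calls and NRG1 gave 3, and they gave 6 and 7 of the probe sets without overlap. Changes past 2-fold were the falls at the 2 brightest EREG probe sets. EGFR and EREG each had called probe sets in 1 direction, and NRG1 was the single member with calls in both.

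**Figure D4:**
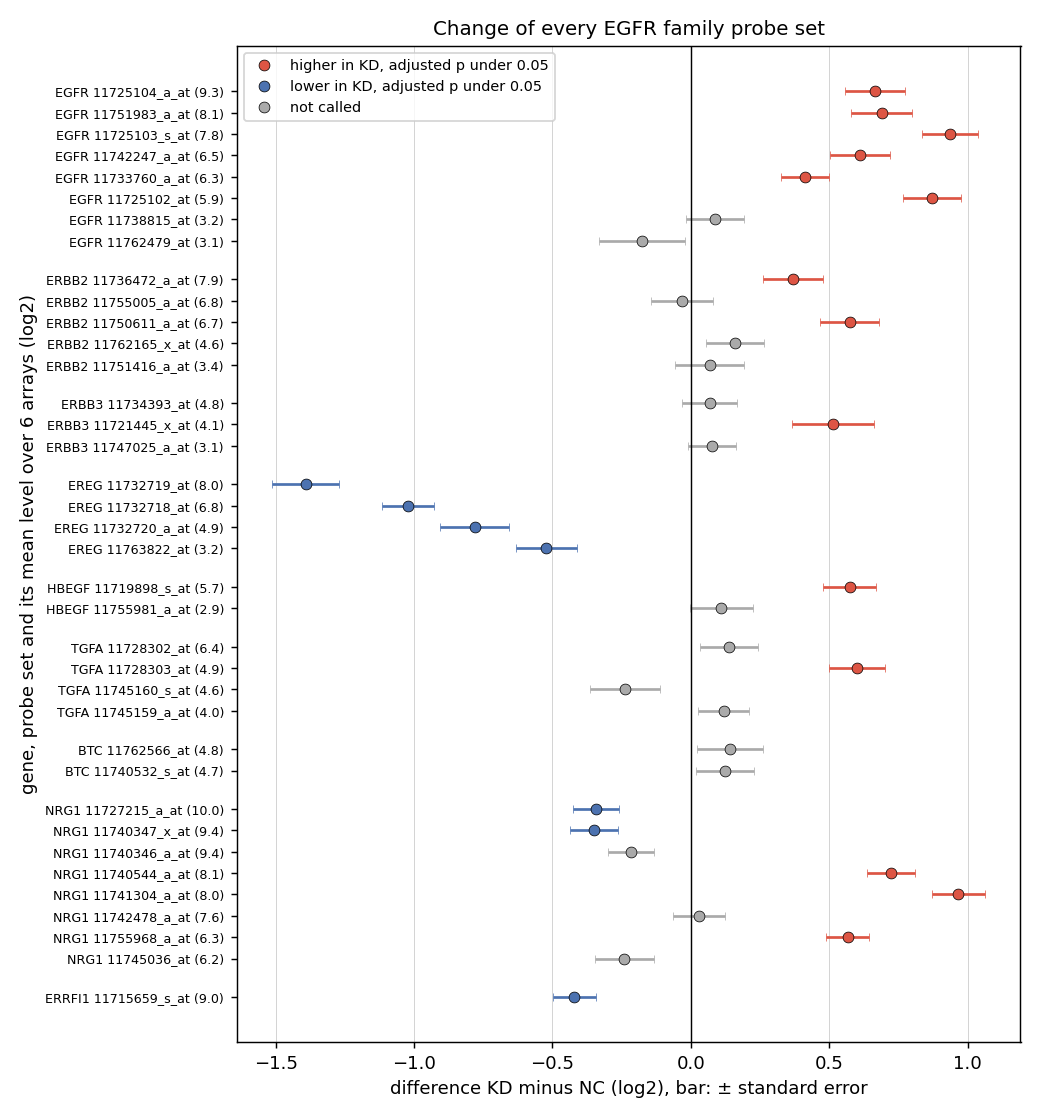
Difference between KD and NC means on the log2 scale for each of the 37 member probe sets, with bars for ± the standard error and the mean level over 6 arrays in brackets. Red points were called higher and blue points lower in KD, and the plot shows 14 higher, 7 lower and 16 not called, with EREG wholly to the left and NRG1 on both sides.

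The other genes of the pathway were taken as 6 lists, of which 62 of 70 genes had a probe set with 1 symbol. The other 8 were not analysed here. Of the 62, 24 were called higher (15 without KD replicate 2) and 7 lower, with a median difference of 0.14 against -0.018 over all genes. KD and NC did not overlap in 42. Over all genes the shares were the 17.6%, 15.9% and 44.7% given above. The lists were chosen with earlier results of these data known, so setting these shares side by side does not test the pathway.

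Family genes outside the members were dim and mostly uncalled, with 0 of 5 higher and 1 lower by limma, the same counts as at an unadjusted p under 0.05. Limma called 17.6% of all genes higher and 15.9% lower. NRG4, a ligand of ERBB4, read 3.93, 3.62 and 3.76 in KD and 4.11, 4.29 and 4.15 in NC, a difference of -0.41 (SE 0.102, limma adjusted p = 0.0119), and its call was lost without KD replicate 2 (0.0532). ERBB4 itself differed by 0.0009. Among the genes of ligand shedding, 4 of 10 were higher and 0 lower by limma, with 1 lower at an unadjusted p under 0.05. Leaving out KD replicate 1 or KD replicate 2, or averaging a gene's probe sets, left 2 higher. Leaving out NC replicate 1, array weights, leaving out low values or averaging probe sets gave 1 lower. RHBDF1, an inactive rhomboid protein that helps the shedding enzyme ADAM17 mature, read 8.42, 8.49 and 8.38 in KD and 7.11, 7.45 and 7.28 in NC, a difference of 1.15 (SE 0.0990, limma adjusted p = 3.49e-05). ADAM10, a shedding protease, was higher by 0.68 (SE 0.113), the rhomboid protease RHBDL2 by 0.39 and ADAM17 by 0.27. The calls of RHBDL2 and ADAM17 were each lost in several leave-one-out fits, with adjusted p up to 0.0647 and 0.0984. They were also lost over the mean of all probe sets, at 0.25 (limma adjusted p = 0.0507) and 0.16 (0.236). RHBDL2 was read by an x probe set, and without such probe sets it differed by 0.22 (limma adjusted p = 0.0786). ADAM17 also lost its call with median centring (0.0567).

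The adaptors and the RAS-MAPK relay had 7 of 11 measured genes higher (4 without KD replicate 2) and 3 lower. The shares of all genes were 17.6% and 15.9%. MAP2K2, a kinase that activates ERK, read 7.81, 7.82 and 7.91 in KD and 9.39, 9.40 and 9.56 in NC, a difference of -1.60 (SE 0.0817, limma adjusted p = 2.35e-06), past that of any member. HRAS was higher by 0.87, the exchange factor SOS1 by 0.86 and the kinase MAPK3 by 0.85, each with KD and NC apart. MAP2K2 and MAPK3 were each read by a single x probe set, and the SOS1 probe set 11720893_s_at differed by -0.11 without a call.

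In the PI3K-AKT, PLCG, SRC and STAT relay, 5 of 10 measured genes were higher and 2 lower, against 17.6% and 15.9% of all genes. The higher count was 3 without KD replicate 1, without KD replicate 3 or when probe sets were averaged, and averaging left 1 lower. The 2 AKT kinases moved in opposite directions: AKT1 read 9.55, 9.52 and 9.52 in KD and 8.84, 8.75 and 9.14 in NC, and AKT2 read 9.33, 9.23 and 9.28 in KD and 9.84, 10.05 and 10.11 in NC. AKT1 differed by 0.62 (SE 0.107, limma adjusted p = 0.0019) and AKT2 by -0.72 (SE 0.0923, limma adjusted p = 0.000323). STAT3, a transcription factor activated by receptor kinases, was higher by 0.44. STAT5B was lower at its brightest probe set, with a difference of -0.96, but 11720229_a_at of the same gene was higher by 0.78.

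Receptor ubiquitination, endocytosis and inhibition had 3 of 16 genes higher and 0 lower by limma, with 3 lower at an unadjusted p under 0.05. Limma called 17.6% of all genes higher and 15.9% lower, so the higher count was near the share of all genes. The higher count fell to 1 with median centring and when any 1 of KD replicates 1 and 2 and NC replicates 1 and 3 was left out. It was 4 when probe sets were averaged or s and x probe sets were left out. The lower count was 1 with quantile normalization and when NC replicate 2 or NC replicate 3 was left out. It was 2 with trend and robust moderation, array weights, low values left out or averaged probe sets. SOCS5, which promotes EGFR degradation, was higher by 0.48 (SE 0.0837, limma adjusted p = 0.00198), the endocytic adaptor EPS15 by 0.29 and the ubiquitin ligase CBLB by 0.25. The calls of EPS15 and CBLB were lost in several leave-one-out fits, with adjusted p up to 0.145 and 0.133. Median centring ended both calls (0.0521 and 0.0658), quantile normalization ended that of EPS15 (0.0637), and CBLB also lost its call with the replicate block (0.0606) and over the mean of its probe sets (0.017, limma adjusted p = 0.894). CBL, the ligase best known for tagging EGFR, differed by -0.08 (limma adjusted p = 0.489).

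Genes known as transcriptional output of ERK had 5 of 10 higher and 1 lower, against 17.6% and 15.9% of all genes. The phosphatases DUSP4 and DUSP6, which remove phosphate from ERK, were higher by 0.69 (SE 0.0932, limma adjusted p = 0.00045) and 0.64 (SE 0.129, limma adjusted p = 0.00432). CCND1, the G1 cyclin D1, read 11.84, 11.79 and 11.81 in KD and 11.18, 11.14 and 11.20 in NC and was higher by 0.64. PHLDA1 moved the other way, with 8.83, 8.75 and 8.89 in KD and 9.65, 9.36 and 9.63 in NC, a difference of -0.73 (SE 0.0993, limma adjusted p = 0.000479). SPRY2, ETV5, EPHA4 and EPHA2 were not called.

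**Figure D5:**
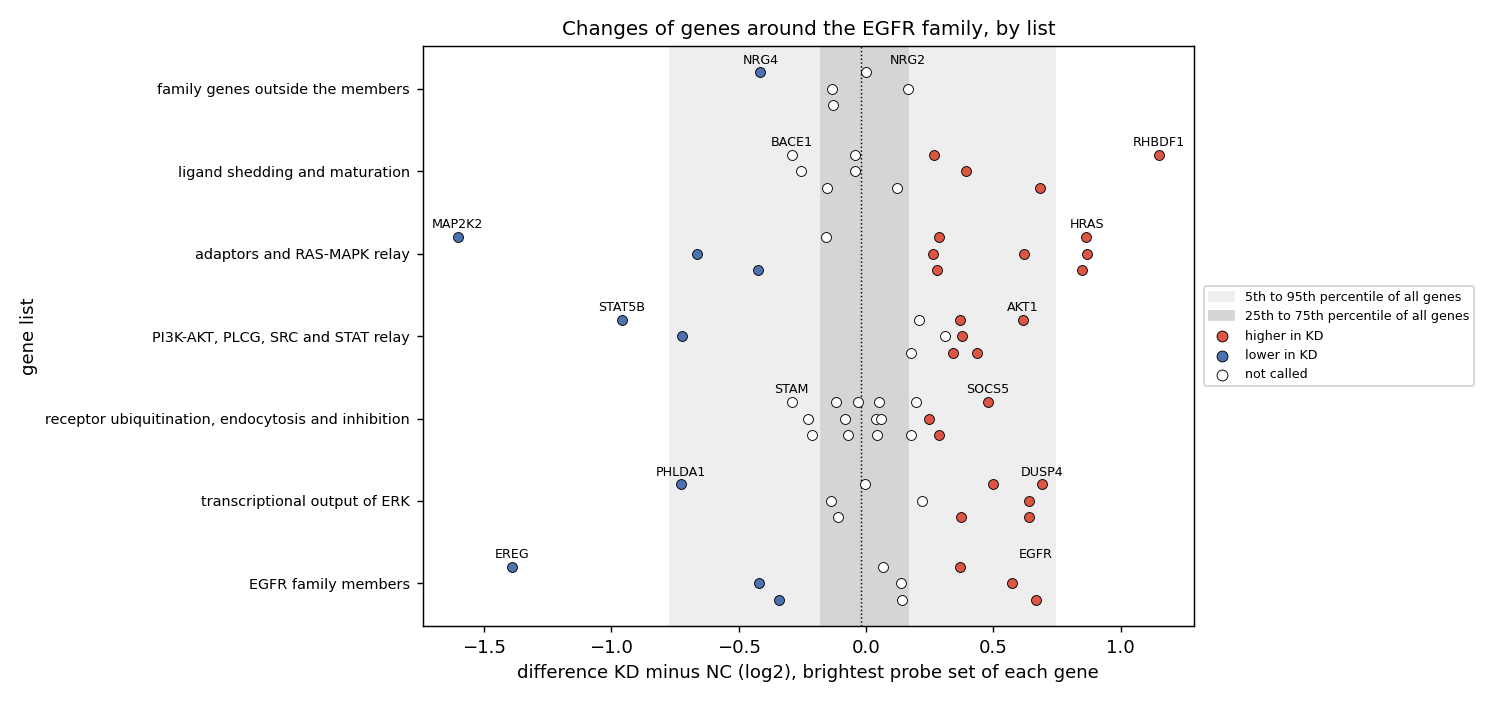
Difference between KD and NC on the log2 scale for the brightest probe set of each gene, 1 row of points per list, with the members in the bottom row and the dotted line at the median of all genes. Red points were called higher, blue lower and white not called. The dark grey band runs between the quartiles of all genes, -0.18 and 0.17, and the light band from -0.77 to 0.74, the outer percentiles named in the legend. EREG and MAP2K2 lie farthest to the left and RHBDF1 farthest to the right.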

How the data were processed

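Total RNA of 6 A549 samples was hybridised as biotin-labelled cRNA to Affymetrix arrays, per the labels' protocols. The submitters' series table of 49395 probe sets was used. The log2 unit of the deposited values was taken from their range, which reaches 14.3. Summarisation and normalization by the authors are not given in the sources used here. Normalization sets what counts as unchanged and can compress fold changes.

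Symbols came from the platform annotation. Where a gene had several probe sets of 1 symbol, the one brightest on average across all 6 arrays stood for it. The group was the only term in limma 3.58.1 under R 4.3.3 (lmFit, then eBayes; two-sided tests), with 4 residual degrees of freedom. Benjamini-Hochberg adjustment ran over 18244 genes or, for single probe sets, over 49293 probe sets without the 102 controls, with a threshold of 0.05. The steps were run on simulated data with normal noise. They recovered 39 of 67 changes of 0.5 log2, 67 of 67 of 1 and 66 of 66 of 2, and called 10 of 18044 unchanged genes. The simulation left 18044 of 18244 genes unchanged, whereas limma called 33.5% of genes in the real data. The adjustment was therefore stricter in the simulation, so this recovery does not measure that of the real fit. In the real fit CBLB was called at 0.25, while PLCG1 was not called at 0.31. Replicate numbers were not used to pair samples in the main fit. The correlations of same-numbered deviations were 0.25, 0.26 and -0.096. They were not set against differently numbered pairs, so they do not settle whether samples were paired.

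All members were named. Of each pathway list, up to 4 genes with the largest change were named among those called and not overlapping, or else the gene with the smallest p. Other genes were named after their values were seen. The members and lists were chosen with earlier results of these data known. Alternatives covered normalization, moderation, weights, the replicate block, low values, probe-set choice, a 2-fold threshold and leaving out each array. Figures were drawn with matplotlib 3.10.9.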

Additional observations from a re-analysis of the deposited data

How the results depend on the processing

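EREG kept its direction and call under all alternatives that were run, and EGFR under all except the 2-fold threshold, with differences from -1.51 to -0.93 and from 0.51 to 0.75. With a change of at least 2-fold required, 414 genes were higher and 564 lower, and the members had 0 higher and 1 lower and the pathway lists 1 and 1 by limma. Leaving out each array gave 15 to 22 list genes higher. When all probe sets of a gene were averaged, NRG1 turned to 0.14, and STAT5B, RHBDL2, ADAM17 and CBLB lost their calls. HBEGF and RHBDL2 lost their calls with s and x probe sets left out. Uncalled probe sets near 0 turned sign: ERBB2 11755005_a_at was 0.024 with array weights and -0.11 to 0.070 over the leave-one-out fits. ERBB2 11751416_a_at ranged over those fits from -0.056 to 0.15. NRG1 11742478_a_at was -0.024 with array weights and -0.037 to 0.11 over those fits. The causes were not tested. With the replicate number as a block, 3262 genes were higher and 3014 lower, members stayed at 3 and 3, member probe sets at 14 and 7, and list genes were 23 and 7. The low-value filter left 7 members. Dim probe sets limit what BTC, ERBB3 and the dimmer EGFR and HBEGF probe sets can show.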
